A study of Mus musculus with 12 samples.

Results

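The genes described here are 7 subunits of the voltage-gated sodium channel: the pore subunits Scn1a, Scn3a, Scn8a and Scn9a and the beta subunits Scn2b, Scn3b and Scn4b. Each was taken as the brightest probe set that carries its symbol alone, which gave 7 of the 19248 genes measured. The genes were chosen by their log2 values in HD and non-transgenic mice on these same arrays. There the HD minus non-transgenic difference of Scn4b was among the lowest of all genes. Their differences between HD and non-transgenic mice are therefore given as values without a test, and tests are given for p62 loss, for the difference of the HD effects and for other genes.

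The arrays were made from the striatum, a forebrain nucleus hit early in Huntington's disease (HD), of 12 mice at an age of 8 weeks, in 4 groups of 3. HD_p62KO mice carry an HD transgene and a p62 knockout, HD_p62WT mice carry the HD transgene with normal p62, NT_p62KO mice carry the p62 knockout without the HD transgene, and NT_p62WT mice carry neither. The p62 protein, the product of Sqstm1, carries ubiquitinated cargo to autophagy, and the cross asked what its loss does to the transcriptome of the HD model. The HD line, the promoter of its transgene, the genetic background and the sex of the mice are left unstated by the labels used here. Values are log2 expression values of whole-transcript arrays, so a difference of 1 is a doubling of signal. Sqstm1 was low in all mice labelled as knockouts, at 8.92 to 9.13 in HD_p62KO against 11.26 to 11.75 in HD_p62WT mice, and at 8.44 to 8.52 in NT_p62KO against 11.19 to 11.35 in NT_p62WT mice. The highest array median was 7.73, and precision is limited by having 3 arrays per group. The spread of values within an array was not equal between groups, with an SD of 1.81 to 1.87 in HD_p62KO, 1.79 to 1.86 in HD_p62WT, 1.73 to 1.82 in NT_p62KO and 1.79 to 1.81 in NT_p62WT mice.

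A voltage-gated sodium channel is built around one large pore subunit, which opens on depolarization, lets sodium in and carries the upstroke of the action potential. Beta subunits cross the membrane once, carry an immunoglobulin-like domain outside the cell, shift the gating of the pore and act as adhesion molecules. Scn2b and Scn4b are linked to the pore by a disulfide bond, whereas Scn3b is bound without one. The short inner tail of the Scn4b protein can block the open pore, and its release on repolarization gives the resurgent current known from Purkinje cells. In the striatum Scn4b is known as a gene enriched in the GABAergic projection neurons, also called medium spiny neurons.

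Scn4b and Scn2b follow each other on mouse chromosome 9 on the same strand, and the 250 bases before their start sites differed in base composition. The windows are shown, with that of Scn9a, because Scn4b was the member that was lowest in HD mice and Scn9a the one that was highest, while Scn2b is the closest neighbour of Scn4b in the family. Sequences are those of RefSeq on GRCm38.p6, 5′ to 3′ on the strand of the gene, and 5 of the 7 genes had an entry. Capitals mark a CCAAT box, which reads ATTGG where it lies on the opposite strand.
Scn4b, chr9:45138374-45138623, plus strand: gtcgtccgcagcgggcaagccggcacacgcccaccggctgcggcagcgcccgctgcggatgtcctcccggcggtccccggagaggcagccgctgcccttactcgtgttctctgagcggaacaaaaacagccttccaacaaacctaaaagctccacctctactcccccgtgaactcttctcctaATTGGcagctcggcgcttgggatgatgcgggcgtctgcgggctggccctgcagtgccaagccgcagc
Scn2b, chr9:45117626-45117875, plus strand: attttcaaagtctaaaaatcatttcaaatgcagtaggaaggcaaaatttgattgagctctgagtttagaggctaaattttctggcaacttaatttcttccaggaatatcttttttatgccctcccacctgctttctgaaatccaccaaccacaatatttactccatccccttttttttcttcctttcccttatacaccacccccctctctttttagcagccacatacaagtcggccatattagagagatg
Scn9a, chr2:66634963-66635212, minus strand: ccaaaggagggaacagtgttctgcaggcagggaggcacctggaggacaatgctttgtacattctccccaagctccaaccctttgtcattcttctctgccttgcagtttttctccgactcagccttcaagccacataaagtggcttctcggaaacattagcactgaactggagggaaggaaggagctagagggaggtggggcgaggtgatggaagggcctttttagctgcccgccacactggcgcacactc
The Scn4b window has 66% G and C and 23 CpG dinucleotides, more CpG than 86.7% of the 32851 windows of the same length. The Scn2b window has 38.4% G and C and 1 CpG, and 7.87% of windows have fewer. Scn9a lies between them with 54.4% and 5 CpG. The start site used for Scn9a lies inside the gene, which the RefSeq gene table extends to 66635114. Its window therefore overlaps the gene, whereas those of Scn4b and Scn2b end at the gene's edge. A search of both strands found 1 motif in the Scn4b window, the CCAAT box on the minus strand from -67 to -63, and 0 in the other windows printed. The CCAAT box occurs in 33.8% of all windows. The other motifs searched were the GC box GGGCGG, which occurs in 32.7% of windows, the TATA box TATAAA, which occurs in 12.4%, and the cAMP response element TGACGTCA, which occurs in 1.55%. No matches overlapped. Such matches are a description of letters and say nothing on whether a factor binds.

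Among the beta subunits, Scn4b was lower in HD mice by more than any other member differed in either direction. Its log2 values were 8.82, 8.99 and 8.82 in HD_p62KO, 9.00, 9.03 and 9.02 in HD_p62WT, 10.71, 10.89 and 10.68 in NT_p62KO and 10.91, 10.65 and 10.79 in NT_p62WT mice. The 6 HD mice lay well below the 6 non-transgenic mice, with no mouse in between. The difference was -1.88 ± 0.085 (SE, n = 3 per group) between HD_p62KO and NT_p62KO mice, a 3.69-fold lower signal, and -1.77 ± 0.085 between HD_p62WT and NT_p62WT mice, 3.40-fold lower. Averaged over both p62 genotypes it was -1.82 ± 0.060, which placed Scn4b at rank 3 from the lowest of the 19248 genes. The step between the lowest non-transgenic group mean and the highest HD group mean was 1.74, while the 2 non-transgenic group means were 0.02 apart, within their spread. In bulk tissue, fewer cells of a type and less RNA per cell cannot be told apart, and this holds for each difference below.

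Scn2b, the beta subunit encoded beside Scn4b, did not share that difference in size. It read 9.97, 10.03 and 9.96 in HD_p62KO, 10.05, 9.90 and 10.02 in HD_p62WT, 10.10, 10.27 and 9.91 in NT_p62KO and 10.16, 10.16 and 10.20 in NT_p62WT mice. HD_p62WT mice lay below NT_p62WT mice, whereas 1 of the NT_p62KO mice was lower than all HD_p62KO mice. The difference was -0.10 ± 0.086 (SE) without p62 and -0.18 ± 0.086 with it, and neighbouring group means were within their spread.

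Scn3b, the beta subunit bound without a disulfide, was higher in HD mice. Its values were 10.77, 10.84 and 10.90 in HD_p62KO, 10.75, 10.79 and 10.90 in HD_p62WT, 10.53, 10.64 and 10.40 in NT_p62KO and 10.65, 10.57 and 10.57 in NT_p62WT mice. All 6 HD mice lay above all 6 non-transgenic mice. The difference was 0.31 ± 0.076 (SE) without p62 and 0.22 ± 0.076 with it. Of the beta subunits, Scn3b thus lay above 0 and Scn4b and Scn2b below it.

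Among the pore subunits, Scn9a, best known from pain-sensing neurons, was the member that was highest in HD relative to non-transgenic mice. It read 8.13, 8.13 and 8.35 in HD_p62KO, 8.01, 7.76 and 8.04 in HD_p62WT, 7.48, 7.09 and 7.37 in NT_p62KO and 7.31, 7.79 and 7.36 in NT_p62WT mice. HD_p62KO mice stood clear of NT_p62KO mice, whereas 1 NT_p62WT mouse, at 7.79, was above the lowest HD_p62WT mouse. The difference was 0.89 ± 0.14 (SE, 1.85-fold) without p62 and 0.45 ± 0.14 (1.37-fold) with it. The mean over both, 0.67 ± 0.098, was rank 103 from the highest of the 19248 genes. Scn9a was also the dimmest member, with a mean brightness above 48.3% of genes, where 90.2% of genes were dimmer than Scn4b.

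The other pore subunits differed little. Scn1a, the pore known from fast-spiking interneurons, read 9.74, 9.92 and 9.69 in HD_p62KO, 9.83, 9.68 and 9.91 in HD_p62WT, 9.67, 9.72 and 9.32 in NT_p62KO and 9.69, 9.62 and 9.69 in NT_p62WT mice. Its groups overlapped in both comparisons with HD, with differences of 0.21 ± 0.11 (SE) without p62 and 0.14 ± 0.11 with it. Its probe set held the same 12 values as a second one annotated to Scn3a and Scn1a together, so that its signal may come from either pore.

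Scn8a, the pore of mature axon initial segments and nodes of Ranvier, read 9.67, 9.82 and 9.68 in HD_p62KO, 9.69, 9.71 and 9.74 in HD_p62WT, 9.84, 9.92 and 9.63 in NT_p62KO and 9.87, 9.79 and 9.89 in NT_p62WT mice. The HD difference was -0.07 ± 0.081 (SE) without p62, where groups overlapped, and -0.13 ± 0.081 with it, where they did not. Scn3a, the pore prominent before birth, ranged from 8.14 to 8.59 in HD_p62KO, 8.27 to 8.43 in HD_p62WT, 8.17 to 8.58 in NT_p62KO and 8.10 to 8.72 in NT_p62WT mice. These ranges lie on top of each other, and Scn3a had the widest spread within groups of the 7 members, with a pooled SD of 0.227 against a median of 0.118 over all genes. For Scn1a, Scn3a, Scn8a and Scn2b, all neighbouring group means were within their spread.

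**Figure D1:**
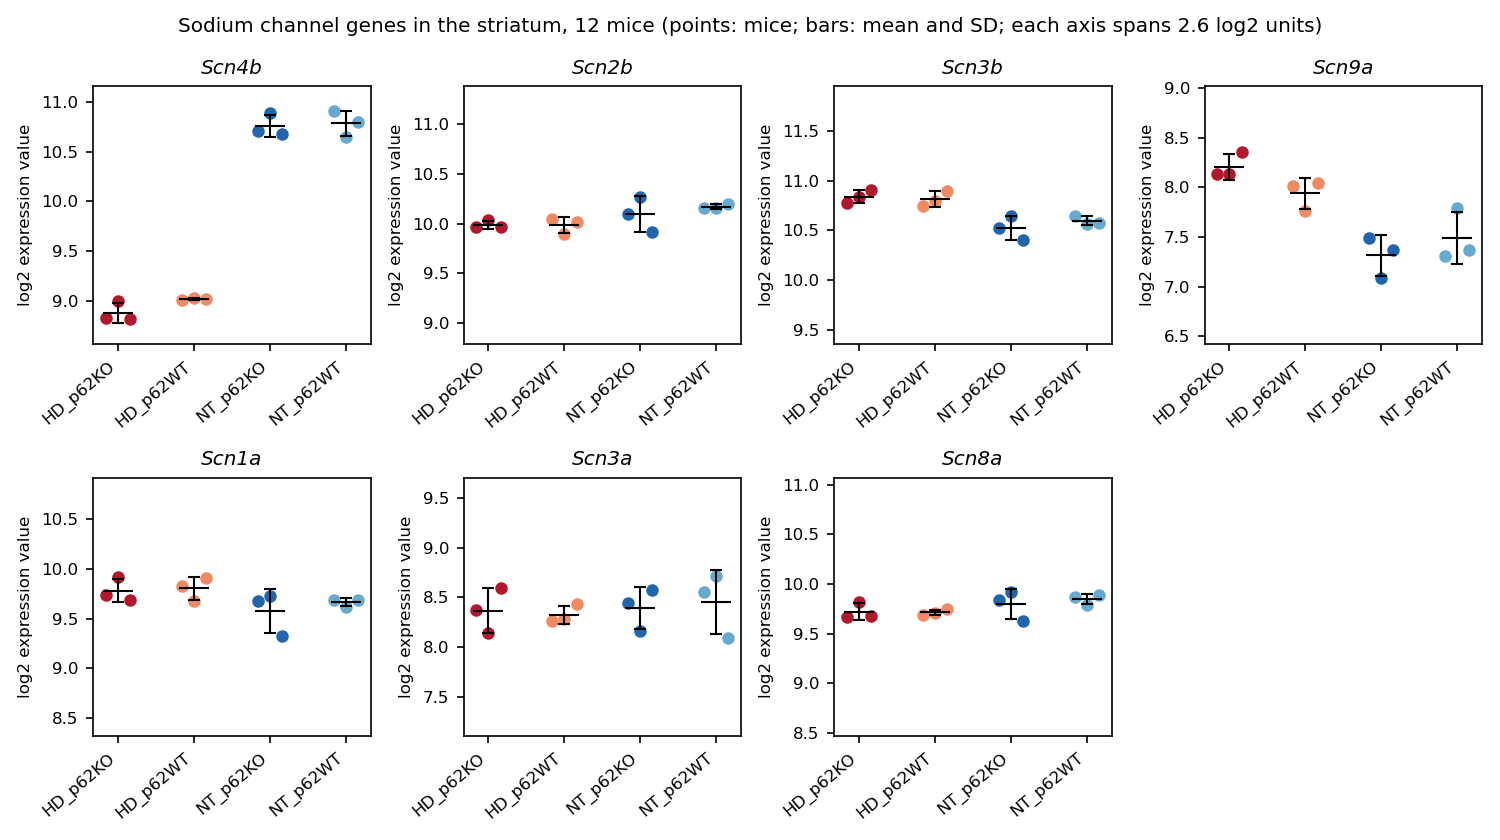
Log2 expression value (y axis) of each of the 7 sodium channel subunits by group (x axis). Each point is 1 mouse, bars mark the group mean and SD, and each axis covers the same span. Scn4b lies at 8.82 to 9.03 in the 6 HD mice and at 10.65 to 10.91 in the 6 non-transgenic mice, while Scn3a and Scn1a overlap between HD and non-transgenic mice of either p62 genotype.

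By the threshold used for all genes (limma, Benjamini-Hochberg adjusted p below 0.05), 3 of the 7 subunits passed between HD_p62KO and NT_p62KO mice, where 21.7% of all genes did, and 1 of 7 between HD_p62WT and NT_p62WT mice, where 7.10% did. Averaged over p62 genotypes 3 of 7 passed, beside 35.0% of all genes. Since these comparisons chose the members, nothing is read from the counts.

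**Figure D2:**
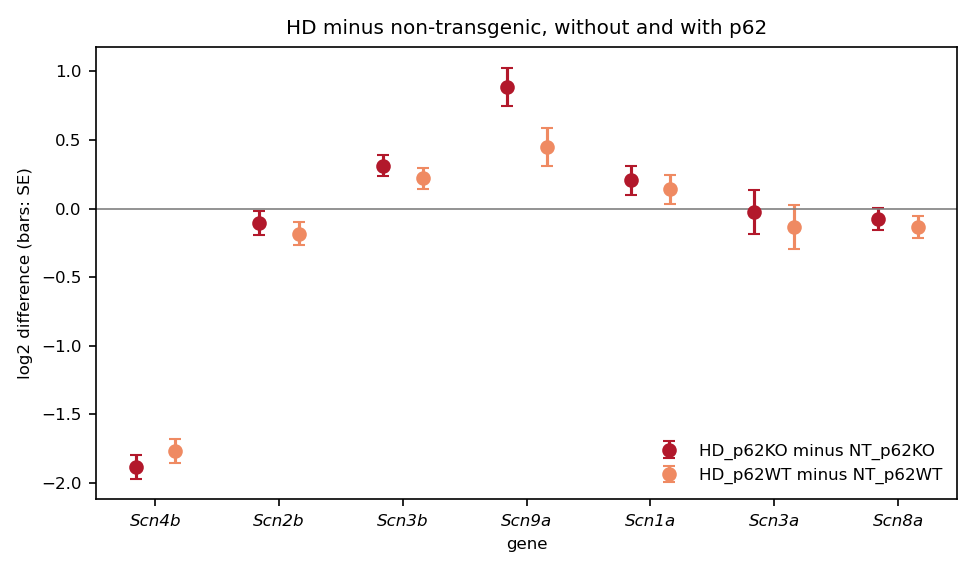
Log2 difference between HD and non-transgenic mice (HD minus non-transgenic) for each subunit without p62 and with normal p62. Points are differences of group means of 3 mice, and bars are standard errors. Scn4b stands at -1.88 and -1.77, Scn9a at 0.89 and 0.45, and the other 5 subunits between -0.18 and 0.31.

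The small differences moved when single arrays were left out and when the spread of the arrays was fitted, and the cause was not tested. NT_p62KO replicate 3, the array with the smallest spread (SD 1.73), was the lowest of its group for Scn1a, Scn8a, Scn2b, Scn3b and Scn4b. Without it the HD difference without p62 was 0.08 for Scn1a, -0.16 for Scn8a, -0.20 for Scn2b and 0.07 for Scn3a, whose sign turned. Other arrays moved this difference too. Without NT_p62KO replicate 2 it was -0.014 for Scn8a and -0.015 for Scn2b, and without HD_p62KO replicate 2 it was 0.09 for Scn3a. With the SD of each array as a covariate, a setting chosen after the data were seen, the same difference was -0.0044 for Scn1a and 0.064 for Scn3a, each of the opposite sign. Across all settings other than leaving out a mouse, it ran from -0.26 to -0.10 for Scn2b, from -0.19 to -0.07 for Scn8a and from 0.22 to 0.31 for Scn3b. Scn4b stood at -1.94 with the covariate and at -1.92 without NT_p62KO replicate 3, and Scn9a at 0.81 and 0.92.

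Effects of p62 loss on the subunits were not detectable with these 12 arrays. In HD mice (HD_p62KO minus HD_p62WT), in non-transgenic mice (NT_p62KO minus NT_p62WT) and averaged over both, 0 of 7 passed, where 0.00520%, 0.00520% and 0.0104% of all genes did (limma). At an unadjusted p below 0.05, 0 of 7 passed in each of these comparisons. By adjusted p, each alternative setting that was run gave 0 as well.

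In HD mice, Scn4b and Scn9a were the 2 subunits whose mice did not overlap between p62 genotypes. For Scn4b the HD_p62KO mice (8.82 to 8.99) lay below the HD_p62WT mice (9.00 to 9.03), with a difference of -0.14 ± 0.085 (SE; 95% interval -0.32 to 0.045; limma, adjusted p = 0.9999). The nearest mice of both groups almost touched, and an exact 2-sided permutation test gave 0.1, the smallest p that 3 against 3 mice allow. Scn9a was higher by 0.26 ± 0.14 in HD_p62KO mice (95% interval -0.04 to 0.57; limma, adjusted p = 0.9999), with the same permutation p of 0.1. Of all genes, 7.38% did not overlap in this comparison, 3.26% higher and 4.11% lower. The other 5 subunits differed by -0.02 to 0.04.

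In non-transgenic mice all 7 differences for p62 loss were below 0, from -0.17 ± 0.14 for Scn9a to -0.02 ± 0.085 for Scn4b. Leaving out single mice turned the sign for Scn1a, Scn8a, Scn2b, Scn4b and Scn3a, but not for Scn9a or for Scn3b (-0.13 to -0.01). Without NT_p62KO replicate 3, 4 of the 7 were above 0, at 0.04 for Scn1a, 0.03 for Scn8a and 0.01 for Scn2b and Scn4b. Scn4b was also above 0 without NT_p62KO replicate 1 or NT_p62WT replicate 1 (up to 0.04), and Scn3a without NT_p62KO replicate 2 or NT_p62WT replicate 2 (up to 0.07). Scn9a ranged from -0.26 without NT_p62WT replicate 1 to -0.02 without NT_p62WT replicate 2, and was -0.06 without NT_p62KO replicate 2. Intervals at 95% ran from -0.48 to 0.13 for Scn9a and from -0.21 to 0.16 for Scn4b. That of Scn4b lay far from its own HD difference. That of Scn9a allows a decrease as large in size as its HD difference with normal p62 (0.45). Choroid plexus markers, which mark an epithelium of the brain ventricles, read higher in NT_p62KO than in NT_p62WT mice. Of 7 markers 6 were measured, and all 6 were higher and not overlapping, beside 3.88% of all genes. In limma 0 of the 6 passed, with 3 at an unadjusted p below 0.05. The mean of the 6 was 8.40 to 8.64 in NT_p62KO against 7.16 to 7.57 in NT_p62WT mice. With that mean as a covariate, a setting chosen after the data were seen, the difference for p62 loss was -0.06 for Scn4b and 0.03 for Scn3a, whose sign turned from -0.06.

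The difference of the HD effects, without p62 minus with p62, was likewise past the threshold for 0 of 7 subunits, beside 0.00% of all genes (limma). For Scn4b it was -0.12 ± 0.12 (SE; 95% interval -0.38 to 0.15; adjusted p = 0.991), and it ranged from -0.18 without NT_p62WT replicate 1 to -0.05 without NT_p62WT replicate 2 or NT_p62KO replicate 2, with -0.17 without HD_p62KO replicate 2. Scn9a was the 1 subunit with an unadjusted p below 0.05, and its HD difference was larger without p62 by 0.44 ± 0.20 (95% interval 0.011 to 0.868; limma, adjusted p = 0.991), which fails the correction over all genes. Leaving out single mice gave 0.29 to 0.53, with the lowest value without NT_p62WT replicate 2. The interval for Scn4b leaves room for a change of its HD difference by up to 0.38 in one direction and 0.15 in the other.

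**Figure D3:**
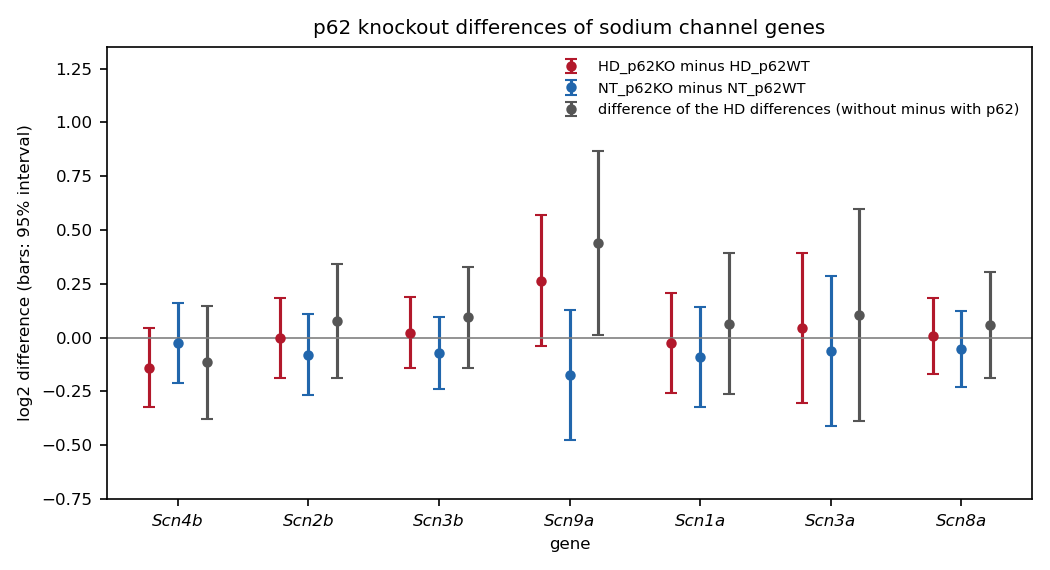
Log2 difference for loss of p62 (knockout minus normal p62) in HD and in non-transgenic mice, and the difference of the HD effects, for each subunit. Points are estimates with 95% confidence intervals from 3 mice per group. The estimates for Scn4b are -0.14, -0.02 and -0.12, and for Scn9a 0.26, -0.17 and 0.44.

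The markers of the projection neurons, in which Scn4b is enriched, were also lower in HD mice. Of 21 markers 18 were measured, among them the dopamine receptors and Ppp1r1b (DARPP-32), and their mean was 10.66 to 10.73 in HD_p62KO, 10.78 to 10.81 in HD_p62WT, 11.21 to 11.40 in NT_p62KO and 11.15 to 11.31 in NT_p62WT mice. Averaged over p62 genotypes 17 fell (beside 15.0% of all genes) and 1, the neuropeptide gene Tac1, rose by 0.28, with a median difference of -0.55 where that of all genes was -0.02. The largest decrease was -0.85, for the phosphodiesterase Pde10a, against -1.82 for Scn4b. Between HD_p62KO and HD_p62WT mice 0 of the 18 passed in limma, and 8 were lower without overlap, beside 4.11% of all genes. Markers shared by all neurons averaged 10.71 to 10.83 in HD_p62KO, 10.63 to 10.79 in HD_p62WT, 10.57 to 10.81 in NT_p62KO and 10.69 to 10.78 in NT_p62WT mice, and 3 of 13 rose and 2 fell, near the shares of all genes (19.9% higher and 15.0% lower). Of 9 measured interneuron markers 7 fell (beside 15.0% of all genes), among them Chat, the enzyme that makes acetylcholine (-0.79), and Nos1 (-0.47). The HD differences of these 9 ran from -0.48 to 0.79 without p62 and from -1.12 to -0.17 with it. For the difference of the HD effects 0 of the 9 passed in limma, with 2 at an unadjusted p below 0.05. The part of these markers in the values of the subunits was not tested.

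Over the 12 mice, the genes whose values followed Scn4b most closely were Gpx6, Phex, Gpr139, Abi3bp, Cpne9 and Cnr1. Likeness was measured as the root mean square difference of log2 values, each gene centred on its own mean, and came to 0.232 for Gpx6, 0.269 for Phex and Gpr139, 0.276 for Abi3bp, 0.313 for Cpne9 and 0.314 for Cnr1, where the median over all genes was 0.915. A further predicted gene ranked among them. The 12 points share their arrays, and the comparison that chose Scn4b is part of this measure. A gene with flat values would score 0.917, the root mean square of Scn4b about its own mean, which lies near that median. Pearson correlations with Scn4b ordered the 6 genes otherwise, from 0.948 for Cpne9 to 0.990 for Cnr1, with 0.972 for Gpx6. Gpx6, a glutathione peroxidase, differed by -2.07 without p62 and -1.76 with it, and the cannabinoid receptor Cnr1 by -1.28 and -1.18. The endopeptidase Phex differed by -1.46 and -1.22, the orphan receptor Gpr139 by -1.52 and -1.16, the matrix-binding protein gene Abi3bp by -1.37 and -1.41, and Cpne9, a copine, by -1.51 and -1.39. Beside these, Scn4b stood at -1.88 and -1.77.

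**Figure D4:**
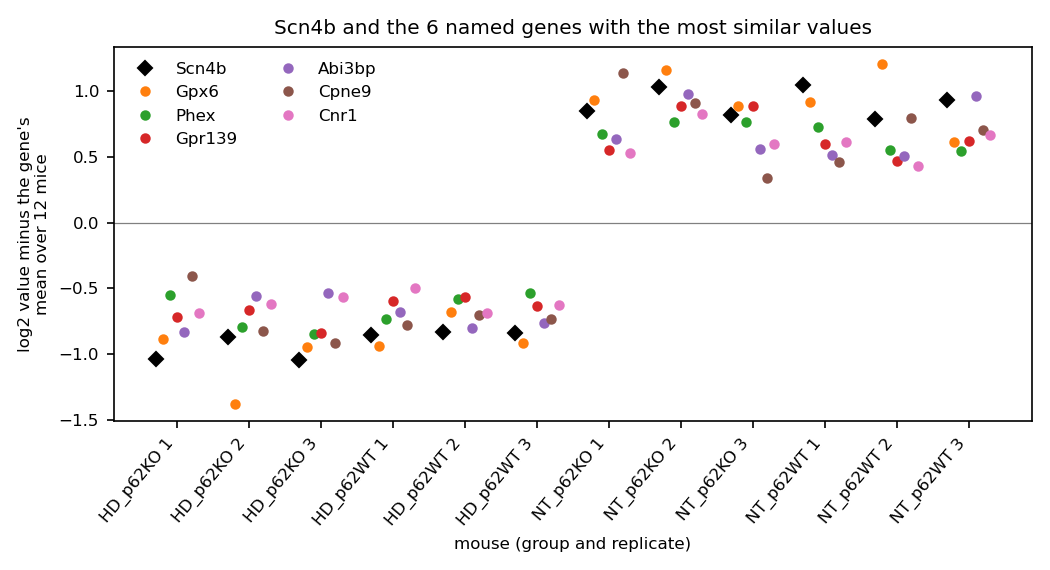
Log2 value minus the gene's mean over 12 mice (y axis) for Scn4b and the 6 genes most like it, mouse by mouse and by group (x axis). Each point is 1 mouse. All 7 genes lie below 0 in the 6 HD mice and above 0 in the 6 non-transgenic mice.

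The genes around Scn4b on chromosome 9 showed differences of at most 0.31 in size, averaged over p62 genotypes. In the order of the RefSeq gene table the measured genes before it are Jaml, a predicted gene and Scn2b, and those after it are Tmprss4, Il10ra and Tmprss13. Tmprss4, a membrane serine protease gene, fell by 0.31 (SE 0.085; limma, adjusted p = 0.0158) averaged over p62 genotypes, with means of 7.17 ± 0.14 (SD, n = 3) in HD_p62KO, 7.36 ± 0.20 in HD_p62WT, 7.57 ± 0.16 in NT_p62KO and 7.57 ± 0.15 in NT_p62WT mice. Il10ra, a receptor for interleukin-10, fell by 0.14 (adjusted p = 0.0455) and Tmprss13 by 0.21 (adjusted p = 0.0483; limma), and neither passed in most fits that left out a mouse. With array spread as a covariate none of these 3 passed (adjusted p = 0.393 for Tmprss4, 0.173 for Il10ra and 0.626 for Tmprss13). Jaml differed by -0.16 ± 0.065 (adjusted p = 0.066).

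Genes that bind, place, cut or work beside the sodium channel passed about as often as genes at large for HD without p62 and averaged over p62 genotypes. For HD with normal p62 they passed less often. None of these counts is read as a result about them as a group. Of 59 listed partner genes 48 were measured. Between HD_p62KO and NT_p62KO mice 9 rose and 3 fell, 12 of 48 beside 21.7% of all genes (13.3% higher and 8.34% lower), and between HD_p62WT and NT_p62WT mice 0 rose and 1 fell, 2.08% beside 7.10% (3.85% higher and 3.24% lower). Averaged over p62 genotypes 11 rose and 6 fell, 35.4% beside 35.0% (19.9% higher and 15.0% lower). Loss of p62 moved 0 of the 48 in HD or non-transgenic mice, and 0 differed in their HD effect (limma), with 1, 0 and 0 at an unadjusted p below 0.05. The first count moved with single mice, as did that over all genes: it was 1 and 2 without HD_p62KO replicates 2 and 3, 7 and 5 without NT_p62KO replicates 1 and 3, and 1 with array spread as a covariate. Over all genes, 4172 passed in that comparison, but 1273 and 1795 without HD_p62KO replicates 2 and 3, 3052 and 1876 without NT_p62KO replicates 1 and 3, and 779 with the covariate. With that covariate the count averaged over p62 genotypes was 4 of the partner genes and 2223 of all genes, where 17 and 6728 passed without it.

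Genes of the axon initial segment and the node of Ranvier, where sodium channels are anchored, moved in both directions. Averaged over p62 genotypes 2 of 15 were higher and 3 lower, beside 19.9% and 15.0% of all genes. Cntnap1, the axonal protein of the paranodal junction beside the node, had means of 9.17 ± 0.093 (SD, n = 3) in HD_p62KO, 9.27 ± 0.14 in HD_p62WT, 9.74 ± 0.24 in NT_p62KO and 9.79 ± 0.10 in NT_p62WT mice. It fell by 0.55 (SE 0.082; limma, adjusted p = 0.000742) averaged over p62 genotypes, and it was the 1 partner gene that passed between HD_p62WT and NT_p62WT mice. Trim46, which bundles microtubules of the proximal axon, had means of 9.32 ± 0.017 in HD_p62KO, 9.35 ± 0.050 in HD_p62WT, 9.55 ± 0.021 in NT_p62KO and 9.55 ± 0.073 in NT_p62WT mice and fell by 0.21 (SE 0.044; limma, adjusted p = 0.00373). Mapre1, a protein of microtubule ends, rose by 0.35 ± 0.10, and Cntn1, the adhesion partner of the Cntnap1 protein, by 0.17 ± 0.051. The call of Cntn1 was lost in 6 of 12 fits that left out a mouse. Sptan1, a spectrin, differed by -0.02.

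Among 15 genes whose products bind or modify the channel, 5 rose and 1 fell, beside 19.9% and 15.0% of all genes. Nedd4, a ubiquitin ligase, had means of 11.41 ± 0.064 (SD, n = 3) in HD_p62KO, 11.45 ± 0.053 in HD_p62WT, 11.11 ± 0.16 in NT_p62KO and 11.20 ± 0.045 in NT_p62WT mice, and rose by 0.27 ± 0.057 (SE; limma, adjusted p = 0.00423). Members of the intracellular FGF family, which bind the inner tail of the pore, parted: Fgf12 rose by 0.22 ± 0.058 and Fgf11 fell by 0.21 (SE 0.070; adjusted p = 0.0345). Csnk2a1, a catalytic subunit of casein kinase, rose by 0.19 ± 0.062. Fgf11 and Csnk2a1 no longer passed in 8 and 9 of 12 fits that left out a mouse. The brightest of these genes that did not pass, Map1b, differed by -0.07.

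Of 8 measured genes for enzymes that cut beta subunits, 2 rose and 1 fell, beside 19.9% and 15.0% of all genes. Ncstn and Aph1b, parts of gamma-secretase, rose by 0.27 ± 0.062 (SE; limma, adjusted p = 0.00661) and 0.20 ± 0.054 (adjusted p = 0.0165), and the protease gene Bace2 fell by 0.19 (SE 0.049; adjusted p = 0.0106). Ncstn had means of 8.72 ± 0.063 (SD, n = 3) in HD_p62KO, 8.61 ± 0.076 in HD_p62WT, 8.33 ± 0.086 in NT_p62KO and 8.46 ± 0.16 in NT_p62WT mice. Psenen, another part of gamma-secretase, differed by 0.10 (adjusted p = 0.0742). Among 3 genes of the sodium leak channel, the pore gene Nalcn rose by 0.22 ± 0.049 (SE; limma, adjusted p = 0.00552), while Unc80, which assembles with it, differed by 0.08. Of 3 measured genes of the sodium pump, which restores the gradient the channels use, Atp1b1 rose by 0.18 ± 0.042 and Atp1b2, the glial beta subunit, fell by 0.25 (SE 0.060; adjusted p = 0.00887), while Atp1b3 differed by 0.20 ± 0.12. Scn2a, a pore subunit outside the 7, differed by 0.10 ± 0.062 (limma, adjusted p = 0.223), and 0 of the 4 other sodium channel genes measured passed, with 1 at an unadjusted p below 0.05. With array spread as a covariate, Cntnap1, Trim46 and Atp1b2 were the named partner genes that still passed.

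**Figure D5:**
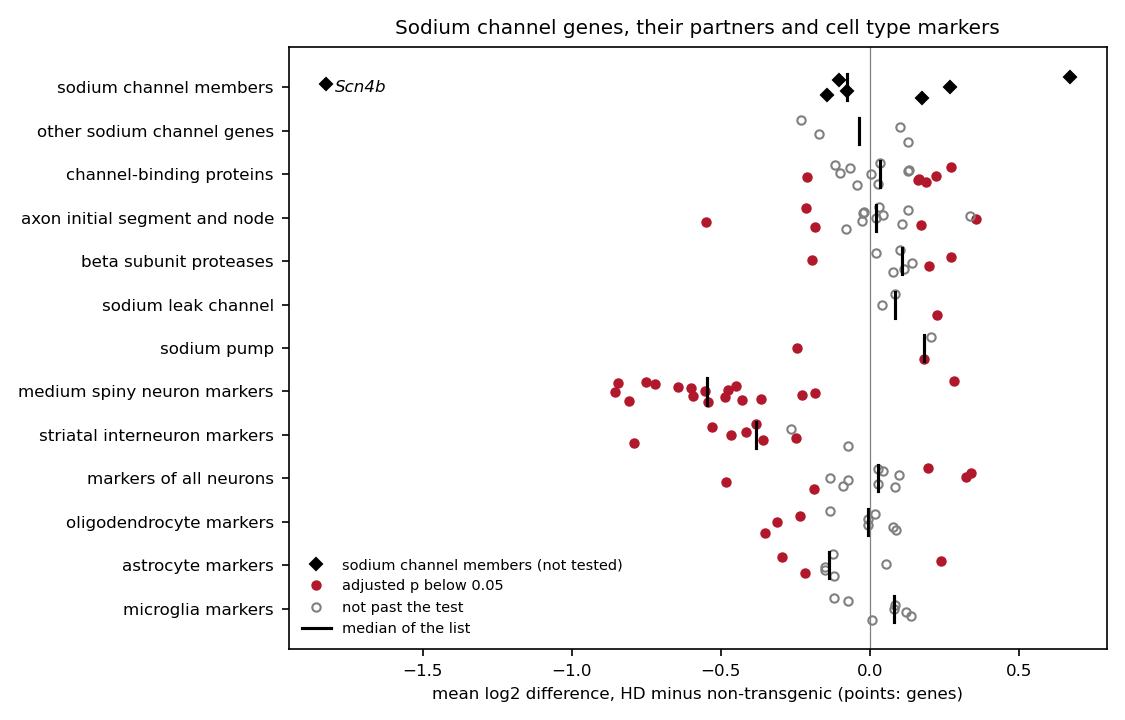
Log2 difference between HD and non-transgenic mice, averaged over p62 genotypes (HD minus non-transgenic), on the x axis, for the 7 subunits, each measured partner gene and markers of 6 cell classes, by list. Each point is 1 gene, filled where its adjusted p was below 0.05, diamonds are the untested subunits and short lines are list medians. Scn4b lies at -1.82, the partner genes lie between Cntnap1 at -0.55 and Mapre1 at 0.35, and the medium spiny neuron markers have a median of -0.55.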

How the data were processed

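Per the labels' protocols, the striatum of 12 mice was snap-frozen and 100 ng of total RNA went into each whole-transcript Affymetrix array. What the authors deposited is 1 log2 value for each probe set and mouse, and the submitters' processing notes name RMA as the tool. RMA's settings, any filter and the genome build: not given in the sources used here. Because RMA equalizes arrays, a shift of nearly all genes cannot appear. No detection calls were used here, and the deposited log2 values run from 1.99 to 13.77.

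Groups came from the sample titles, which call the samples biological replicates. Tests rest on the spread among these samples, and part of that spread may be technical. Arrays correlated at 0.987 to 0.995 within groups, and 0 pairs were identical. Replicate numbers recur across groups, but the labels tie them to nothing. Deviations of same-numbered mice from their group means correlated at -0.34 to 0.21 (18 pairs), so the numbers were not taken as pairs.

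The platform annotation gave a single symbol to 19942 of 24055 probe sets, and the brightest per gene over all mice was kept, which left 19248 genes. limma 3.58.1 in R 4.3.3 fitted a mean per group to 12 arrays (8 residual and 4.14 prior degrees of freedom), with Benjamini-Hochberg adjustment across the 19248 genes of each comparison and a threshold of 0.05. The fit was tested on simulated data. The members, gene lists and tests were chosen with earlier results of these data known. From each of 6 partner lists the text names up to 4 genes past the threshold in the HD effect averaged over p62 genotypes, by smallest p, and the brightest gene that did not pass. It also names any list gene past the threshold for p62 loss, the 6 genes most like Scn4b and the 3 measured genes on each side of it. Predicted genes were counted, not named. Alternatives were a replicate block, repeated quantile normalization, array medians made equal, a filter on genes below the 25th percentile of brightness, the mean of all probe sets, trended and robust variances, only the groups compared and leaving out each mouse. Array SD and the choroid plexus mean as covariates were added after the data were seen. Of 11 marker lists, those of cortical, thalamic, glial and vascular cells are not described further. For the averaged HD effect they had 0 to 3 members past the threshold each, beside 35.0% of all genes. The most were in the glial lists, where 3 of 9 oligodendrocyte markers fell and, of 8 astrocyte markers, 1 rose and 2 fell.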

Additional observations from a re-analysis of the deposited data

How the results depend on the processing

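Signs under the alternatives were followed for the 7 subunits and, in the averaged HD effect, for the named partner genes and the neighbours of Scn4b. Among these, no value past its threshold changed sign. Signs of the marker genes, and of partner genes in the 2 separate HD comparisons, were not followed. Under each alternative, 0 of 7 subunits passed for p62 loss or for the difference of the HD effects. The HD difference of Scn4b lay between -1.95 and -1.88 without p62 and between -1.80 and -1.77 with it across settings, and between -1.94 and -1.82 and between -1.83 and -1.71 without single mice. Of 48 partner genes, 12 passed for HD without p62, but 7 with a replicate block, 2 with only the groups compared, 1 with array SD as a covariate, and 1 to 14 without single mice, while all-gene calls, 4172, were 3054, 1742 and 779 in these settings and 1273 to 5128 without single mice. For HD with normal p62, 1 passed, but 3 after quantile normalization, 2 without the dimmest genes, 4 with trended and robust variances, 2 with array SD and 0 with the choroid plexus mean as covariates, and 0 to 1 without single mice (0 without HD_p62WT replicate 1, 2 or 3 or NT_p62WT replicate 1 or 3), while all-gene calls, 1366, were 1733, 1740, 1733, 1176 and 629 in these settings and 398 to 2040 without single mice. Averaged over p62 genotypes 17 passed, but 4 with array SD as a covariate and 11 to 20 without single mice (11 without HD_p62WT replicate 1), where all-gene calls, 6728, were 2223 and 4977 to 7542. The cause of these changes was not tested. Fits that left out a mouse also had fewer samples, and some of them gave more calls than the main fit. The replicate block left the members' differences as they were, since each number occurs once per group, and gave 709 all-gene calls for HD with normal p62. Of 12 mice, 2 correlated best with a mouse of their own number. With 3 mice per group, effects of p62 loss as small as the intervals given could not be detected, and no detection calls tell dim values such as those of Scn9a from background.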
